A study of Mus musculus with 12 samples.

Results

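The genes described here were silent in the islets of untreated mice and on 1 DPA after diphtheria toxin. They were chosen by their levels: a mean under 0.1 CPM (counts scaled to the total of each library) over the 3 control libraries, and 0.5 CPM or more in each of the 3 libraries at 1 DPA, with the histone cluster genes left out by name. The rule found 127 genes of 48709 in the table, or 0.405% of the 31339 genes that were silent in the controls and not in the histone clusters. The 12 histone cluster genes that met both levels are not described. Because the levels in both groups chose these genes, their difference between control and 1 DPA is given as a description, with no test.

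The study followed mouse islets, the hormone-secreting clusters of the pancreas, after partial loss of their beta cells. All 12 libraries came from pancreatic islets of female mice of genotype NSG RIP-DTR Htz, heterozygous for a diphtheria toxin receptor placed behind the rat insulin promoter, so that toxin enters beta cells, on the immunodeficient NSG background. The 3 control libraries (CTRL) came from mice of that same genotype with no treatment. The 9 others came from such mice given diphtheria toxin (DT), 3 libraries at each of 1, 3 and 5 DPA, the time unit of the labels. The labels give no age, and no control that received toxin without the receptor was analysed here. Nothing in the labels says that replicates were separate animals, so a p-value here measures how far these samples differ among themselves, a spread that may be technical.

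As background, genes of germ cells, muscle, nerve or liver are kept off in islet cells because their activators are missing and their promoters are packed in repressive chromatin. Diphtheria toxin blocks protein synthesis in the cells it enters by inactivating an elongation factor of the ribosome. RNA of an active gene is normally cut at its polyadenylation site and transcription ends shortly beyond it, and RNA that is not ended there can run on into the next gene of the same strand. Counts per gene do not show where a transcript began, so RNA begun at a gene's own start and RNA begun further upstream cannot be told apart here.

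Promoter sequences are shown for 4 of the genes that the results return to: the highest at 1 DPA (Amhr2), one with no counts in the controls and no close expressed gene upstream (Evx1), one close behind a strongly expressed gene (Mc1r) and the highest at 3 DPA (Sec1). They were chosen after their values were seen. Each is the 250 bases before the RefSeq start, in GRCm38.p6, 5′ to 3′ on the gene's own strand. The Amhr2 bases lie at chr15:102445117-102445366 on the plus strand, those of Evx1 at chr6:52313248-52313497 on the plus strand, those of Mc1r at chr8:123406832-123407081 on the plus strand and those of Sec1 at chr7:45694403-45694652 on the minus strand. Capitals mark a match, on either strand, to the TATA box, the cAMP response element core, the AP-1 sequence or the ATF4 composite element, and the single run in capitals, in Sec1, is the cAMP response element core read on the opposite strand.
Amhr2: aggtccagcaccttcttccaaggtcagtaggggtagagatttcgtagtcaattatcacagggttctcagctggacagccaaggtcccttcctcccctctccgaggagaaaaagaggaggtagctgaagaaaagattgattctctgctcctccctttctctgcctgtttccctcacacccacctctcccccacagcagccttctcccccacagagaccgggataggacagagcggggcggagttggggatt
Evx1: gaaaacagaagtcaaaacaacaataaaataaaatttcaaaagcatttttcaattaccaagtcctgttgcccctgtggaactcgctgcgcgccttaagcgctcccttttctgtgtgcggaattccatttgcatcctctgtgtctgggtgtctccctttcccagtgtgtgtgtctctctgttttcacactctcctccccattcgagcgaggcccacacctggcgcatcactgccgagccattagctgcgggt
Mc1r: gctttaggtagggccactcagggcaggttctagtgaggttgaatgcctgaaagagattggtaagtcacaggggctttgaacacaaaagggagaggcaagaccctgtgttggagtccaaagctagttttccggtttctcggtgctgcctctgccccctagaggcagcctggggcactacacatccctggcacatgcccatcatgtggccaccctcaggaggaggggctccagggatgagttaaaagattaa
Sec1: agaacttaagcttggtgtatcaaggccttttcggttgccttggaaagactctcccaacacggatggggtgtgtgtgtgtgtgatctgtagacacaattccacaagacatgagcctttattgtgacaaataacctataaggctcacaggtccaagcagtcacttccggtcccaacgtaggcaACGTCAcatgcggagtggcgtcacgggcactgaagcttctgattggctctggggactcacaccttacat

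RefSeq held a promoter for 86 of the 127 genes. These promoters had a median CpG content of 0.272 of that expected from their bases, against 0.157 for the other protein-coding genes silent in the controls and 0.717 for protein-coding genes at 1 CPM or more in the controls. TATAAA, the core of the TATA box, stood in 14% of them (12 of 86), against 25.6% of the other silent coding genes, 6.32% of the expressed ones and 13% of all 27025 promoters. TGACGT, the core of the cAMP response element, stood in 2.33%, against 3.22% of the other silent coding genes and 6.56% of all promoters. TGAGTCA, the AP-1 sequence, stood in 5.81%, against 5.94% of the other silent coding genes and 4.43% of all. TGATGNAA, an element of ATF4 with C/EBP factors, stood in 1.16%, against 5.7% of the other silent coding genes and 3.53% of all. All 4 were searched on both strands, no motif contains another, and a match is a description of the letters only.

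The libraries held 29867083 to 50012558 counts in all. Insulin took 16% to 18.7% of the counts in the controls and 10.4% to 14.2% at 1 DPA, so the defining beta-cell transcripts of the labelled tissue were abundant in every library. In bulk RNA fewer beta cells and less insulin RNA per cell cannot be told apart. Summed over their marker lists, macrophage genes stood at 140 to 587 CPM in the controls and 103 to 134 CPM at 1 DPA, stromal genes at 775 to 2262 CPM and 758 to 1003 CPM, and endothelial genes at 891 to 1093 CPM and 726 to 762 CPM, so no 1 DPA library exceeded the highest control in any of the 3. Schwann cell genes stood at 57.9 to 76.4 CPM in the controls and 56.7 to 76.9 CPM at 1 DPA, with replicate 3 just above the highest control. At 1 DPA, replicate 3 had the fewest counts, the least insulin (10.4%) and the lowest acinar sum (6657 CPM against 60004 CPM in replicate 1).

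In the controls the 127 genes had mean levels of 0 to 0.0984 CPM. No control library held a count of 15 of them, 36 had 1 to 3 counts over the 3 controls and 76 had more, up to 13. At 1 DPA their means ran from 0.582 to 15.4 CPM with a median of 1.73 CPM. Summed, the 127 genes gave 6.46, 3.78 and 5.03 CPM in control replicates 1 to 3 and 214, 295 and 468 CPM in the 1 DPA replicates. Replicate 3 at 1 DPA was the highest of its group for 108 of the 127 genes, and the part of its depth and cell makeup in that was not tested. The 31212 other silent genes, summed, gave 133, 103 and 98.3 CPM in the controls and 222, 285 and 420 CPM at 1 DPA. A summed rise in that replicate order is therefore not particular to the 127. The genes nearest the 0.5 CPM minimum inside it, by their lowest 1 DPA library, were Tal2 (0.502), Gm16287 (0.514) and Gm20715 (0.514), and those just outside were RP24-155I9.3 (0.499), 4930507D05Rik (0.488) and Gm14029 (0.488). Nearest the control maximum, by their control mean in CPM, were Tal2 (0.0984), Cpne9 (0.0983) and Lhx3 (0.0981) inside and Scn4a (0.105), Hspb9 (0.108) and Slc27a5 (0.112) outside.

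The choice was then repeated with 1 of the 1 DPA libraries left out. Genes chosen that way that also reach 0.5 CPM in the library left out are the same 127 by construction. The shares describe how far each library narrows the choice and are no support for it. Genes chosen without 1 DPA replicate 1 numbered 186, of which 127 (68.3%) reached 0.5 CPM in it, where 0.482% of all silent genes did. Without replicate 2 the rule chose 139 genes, of which 127 (91.4%) reached 0.5 CPM in it, and without replicate 3 it chose 131, of which 127 (96.9%) did, with a median of 2.48 CPM. With the groups exchanged, no gene silent at 1 DPA was at 0.5 CPM or more in every control library, of 30994 silent genes, and the same count was 0 for genes silent at 3 DPA and at 5 DPA. The rule is not particular to 1 DPA: of the 31339 silent genes, 144 (0.459%) were at 0.5 CPM or more in each 3 DPA library and 60 (0.191%) in each 5 DPA library.

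**Figure D1:**
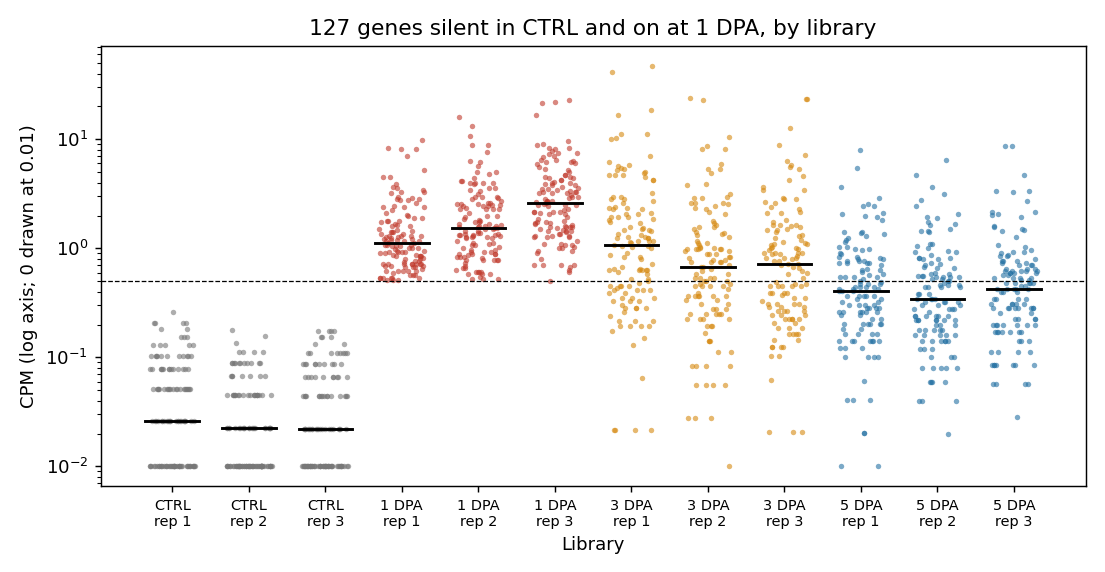
CPM of each of the 127 genes in each library on a log axis, with 0 drawn at 0.01; each point is a gene, bars are library medians and the dashed line is 0.5 CPM. The control and 1 DPA columns are set apart by the rule, while at 3 and 5 DPA, which it did not use, the points spread across the line, with medians of 1.06, 0.671 and 0.721 CPM at 3 DPA and 0.405, 0.34 and 0.424 CPM at 5 DPA.

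Of 4 receptors, grouped after their values were seen, 1 had the highest mean of the 127 genes at 1 DPA. Amhr2, the type 2 receptor for anti-Müllerian hormone, had 0.0775, 0.0894 and 0 CPM in the controls and 9.91, 13.33 and 23.04 CPM at 1 DPA, or 7 against 1582 counts. It then stood at 5.84, 2.54 and 5.62 CPM at 3 DPA and 1.98, 1.92 and 2.71 CPM at 5 DPA, so each 3 DPA library lay below each 1 DPA library, and the 3 and 5 DPA ranges overlapped. Mc1r, the melanocortin receptor of pigment cells, had 1 count in all 3 controls together and 4.47, 4.99 and 6.16 CPM at 1 DPA, a ratio of 661 with a 95% counting interval of 118 to 26171. It stood at 2.93, 2.07 and 1.65 CPM at 3 DPA and 1.40, 1.40 and 0.594 CPM at 5 DPA, each group below the earlier one without overlap. Asgr1, a receptor of liver cells for desialylated glycoproteins, had 3.31, 5.04 and 6.50 CPM at 1 DPA, 2.37, 1.56 and 1.48 CPM at 3 DPA and 0.506, 0.540 and 0.566 CPM at 5 DPA. With the orphan receptor Gpr152 (2.80, 3.36 and 7.37 CPM at 1 DPA), all 4 receptors of this group were still at 0.5 CPM or more in every library at 3 and at 5 DPA. Over all 127 genes, 53.5% were so at 3 DPA and 30.7% at 5 DPA. Vmn2r1, a vomeronasal receptor among the 127 that was left out of the group, had 0.582 CPM ± 0.211 at 3 DPA and 0.316 CPM ± 0.254 at 5 DPA (SD, n = 3 each). Of the 22 hormone and melanocortin receptors of a wider list, 11 were silent in the controls, and Mc1r and Amhr2 were the 2 of them that met the rule, where 0.405% of all silent genes did.

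Ligands and peptide hormones numbered 5, with means of 1.2 to 5.2 CPM at 1 DPA. Dll3, a Notch pathway ligand of the embryo, had 3.31, 4.78 and 7.50 CPM at 1 DPA against 0.103, 0 and 0.0439 CPM in the controls, and then 1.17, 0.503 and 0.968 CPM at 3 DPA. Ucn2, a peptide of the corticotropin-releasing family, had 2.41, 4.01 and 3.98 CPM at 1 DPA, 2.37, 2.29 and 1.09 CPM at 3 DPA and 0.628, 0.440 and 0.849 CPM at 5 DPA. Spx, the peptide hormone spexin, had 2.62, 3.99 and 7.43 CPM at 1 DPA and 5.01, 2.88 and 2.66 CPM at 3 DPA, with overlapping ranges. Oxt, the precursor of oxytocin, had no count in the controls and 0.616, 1.29 and 1.71 CPM at 1 DPA, at least 49.9-fold higher than a floor of 3 counts over the control group, where the floor covers counting error only. Of 5 ligands and hormones, these and Wnt10b, 4 were at 0.5 CPM or more in every 3 DPA library and 1 at 5 DPA.

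Transcription factors of the embryo and of other lineages numbered 9 (Evx1, Sox21, Nhlh1, Cebpe, Ascl3, Lhx3, Fezf2, T and Tal2), grouped after their values were seen. Evx1, a homeobox factor of the spinal cord and posterior embryo, had no count in any control and 6.99, 7.61 and 3.55 CPM at 1 DPA, at least 269-fold higher than the floor. It stood at 2.41, 0.894 and 0.329 CPM at 3 DPA and 0.344, 0.600 and 0.735 CPM at 5 DPA, all below the lowest 1 DPA library. Sox21, a factor of neural progenitors, also had no control count, and had 2.85, 2.94 and 2.48 CPM at 1 DPA, at least 119-fold higher than the floor. In both Evx1 and Sox21 replicate 3 was the lowest at 1 DPA, unlike in most of the 127 genes. Nhlh1, a factor of developing neurons, had 1.18, 1.73 and 2.95 CPM at 1 DPA and a higher mean at 3 DPA, with 4.73, 2.46 and 2.88 CPM, but the ranges overlapped. Of the 9, 3 were at 0.5 CPM or more in every library at 3 DPA and 1 at 5 DPA.

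Muscle genes numbered 8 (Ryr1, Mypn, Myh3, Tnni1, Mybph, Mybphl, Trim72 and Ampd1). Ryr1, the calcium release channel of skeletal muscle, had 1.28, 3.54 and 6.39 CPM at 1 DPA and 11.2, 8.08 and 6.34 CPM at 3 DPA, against 0.129, 0.0894 and 0.0658 CPM in the controls, and the 1 and 3 DPA ranges overlapped at their ends. Tnni1, the slow-muscle troponin I, had 0.873, 0.787 and 1.88 CPM at 1 DPA and 5.42, 2.91 and 5.85 CPM at 3 DPA, so every 3 DPA library was above every 1 DPA library. Mypn, myopalladin of the sarcomere, was highest at 1 DPA, with 2.44, 4.12 and 4.25 CPM, and stood at 1.17, 1.01 and 1.42 CPM at 3 DPA. At 0.5 CPM or more in every library were 5 of the 8 at 3 DPA and 3 at 5 DPA. The 10 stromal markers summed to 758 to 1003 CPM at 1 DPA, 1550 to 2275 CPM at 3 DPA and 3277 to 5610 CPM at 5 DPA, against 775 to 2262 CPM in the controls, and their part in the muscle values was not tested.

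Liver and plasma genes differed in how long they stayed on. Gys2, the liver glycogen synthase, had 5.24, 8.87 and 22.1 CPM at 1 DPA, 41.75, 22.98 and 23.64 CPM at 3 DPA and 5.47, 4.72 and 8.71 CPM at 5 DPA, against 0.103, 0 and 0.0878 CPM in the controls. Serpinf2, the plasmin inhibitor of plasma, had 1.64, 2.28 and 6.06 CPM at 1 DPA, 16.8, 8.69 and 8.81 CPM at 3 DPA and 2.47, 2.46 and 2.15 CPM at 5 DPA. For both, every 3 DPA library was above every 1 DPA library. F11 and Klkb1_2, coagulation factor XI and a second table entry named for plasma kallikrein, lie 7639 bp apart on the minus strand of chromosome 8 and were on at 1 DPA alone. F11 had no control count, 0.616, 1.44 and 1.61 CPM at 1 DPA and 0.0217, 0.0559 and 0.0206 CPM at 3 DPA, and Klkb1_2 had 1.77, 2.36 and 3.45 CPM at 1 DPA and 0.0217, 0.0279 and 0.227 CPM at 3 DPA. Klkb1_2 shares exon bases with Cyp4v3 on the same strand, so its counts are uncertain. Slc2a7, a sugar transporter of the gut, also fell from 1 to 3 DPA, with 2.80, 4.43 and 8.24 CPM at 1 DPA and 0.412, 0.0839 and 0.268 CPM at 3 DPA. At 5 DPA their means differed, with 0.487 CPM ± 0.203 for Slc2a7, 0.158 CPM ± 0.112 for F11 and 0.0483 CPM ± 0.0436 for Klkb1_2 (SD, n = 3 each).

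Genes of germ cells and cilia numbered 9. Rsph6a, a radial spoke protein of the sperm tail, had 2.23, 3.44 and 6.19 CPM at 1 DPA, 4.54, 2.60 and 2.84 CPM at 3 DPA and 0.769, 0.520 and 0.849 CPM at 5 DPA. Hormad2, a protein of meiotic chromosome axes, had no control count, 1.77, 2.55 and 5.26 CPM at 1 DPA and 4.948, 3.802 and 3.438 CPM at 3 DPA, at least 130-fold above the floor at 1 DPA. Cfap53, a protein of motile cilia, had 1.90, 3.15 and 7.73 CPM at 1 DPA and 5.38, 2.96 and 2.84 CPM at 3 DPA, so the 1 and 3 DPA ranges of all 3 genes overlapped. Of the 9, these 3 alone were at 0.5 CPM or more in every 3 DPA library, and 3 of the 9 were at 5 DPA. The lowest 3 DPA mean in the group was 0.129 CPM. Of 13 silent genes of a list of 26 meiosis genes, 1 met the rule (Hormad2). Of 4 silent genes among 33 measured genes of motile cilia, 1 did (Cfap53). Over all silent genes 0.405% did, and these lists hold few silent genes. The 8 markers of testis germ cells summed to 0.568 to 1.05 CPM in the controls, 0.446 to 0.971 CPM at 1 DPA and 1.61 to 5.71 CPM at 3 DPA. Among them, the protamine gene Prm2 and the transition protein gene Tnp1 were at 0 at both 1 and 3 DPA. From 1 to 3 DPA, Ddx4 went from 0.16 CPM ± 0.152 to 2.5 CPM ± 1.99, Sycp3 from 0.0484 CPM ± 0.0209 to 0.383 CPM ± 0.244 and Dazl from 0.287 CPM ± 0.0719 to 0.218 CPM ± 0.108 (SD, n = 3 each).

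The highest value of any of the 127 was that of Sec1 at 3 DPA. Sec1, an alpha-1,2-fucosyltransferase gene, had 1.00, 1.97 and 9.04 CPM at 1 DPA, 47.1, 24.1 and 23.4 CPM at 3 DPA and 7.998, 6.498 and 8.683 CPM at 5 DPA, against 0.0775, 0 and 0.0878 CPM in the controls. Best2, a calcium-activated chloride channel, had 1.77, 2.47 and 4.39 CPM at 1 DPA and 9.98, 5.37 and 5.29 CPM at 3 DPA, again without overlap. Crygs, a crystallin of the lens, had 2.88, 3.94 and 4.69 CPM at 1 DPA and 1.58, 0.671 and 1.15 CPM at 3 DPA. Cpa4, a carboxypeptidase, had 3.65, 4.17 and 6.36 CPM at 1 DPA, Trim43a, a gene of the early embryo, 3.21, 2.97 and 6.83 CPM, and Emilin3, an extracellular matrix protein, 1.67, 2.49 and 5.52 CPM, and none of these 3 kept a mean of 1 CPM at 3 DPA (0.772, 0.735 and 0.899 CPM). Among genes without a descriptive name, Gm11525 had 1 control count and 8.22, 16.1 and 21.3 CPM at 1 DPA, Gm11274 had none and 8.27, 10.7 and 16.5 CPM, and Gm13373 had 3 and 8.14, 8.92 and 8.14 CPM.

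At 3 DPA, 68 of the 127 genes (53.5%) were at 0.5 CPM or more in each library, against 0.243% of the other silent genes. At 5 DPA, 39 genes (30.7%) were, against 0.0673% of the others. Of these, 38 were on at both times, 30 at 3 DPA alone, 1 at 5 DPA alone and 58 at neither. Of the 127, 4 had a mean under 0.1 CPM at 3 DPA and 7 at 5 DPA. Every 3 DPA library was above every control library for 115 genes (background 20.1% of all 17294 genes tested) and every 5 DPA library for 105 (22.7%), counts that the low control levels of the rule set in part.

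The highest mean was at 1 DPA for 105 genes, at 3 DPA for 22 and at 5 DPA for none. The rule chose these genes for a minimum at 1 DPA, so this count, the comparisons with 1 DPA and the ratio to the 1 DPA mean are set by it in part and are read as descriptions, with the shares of all tested genes given for scale only. Every 3 DPA library was below every 1 DPA library for 71 genes (27.1% of all tested genes) and above for 9 (30.3%), and every 5 DPA library was below every 1 DPA library for 110 (29.6%). The median ratio of the 3 DPA mean to the 1 DPA mean was 0.426, with a range of 0.0268 for F11 to 7.87 for Sec1.

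**Figure D2:**
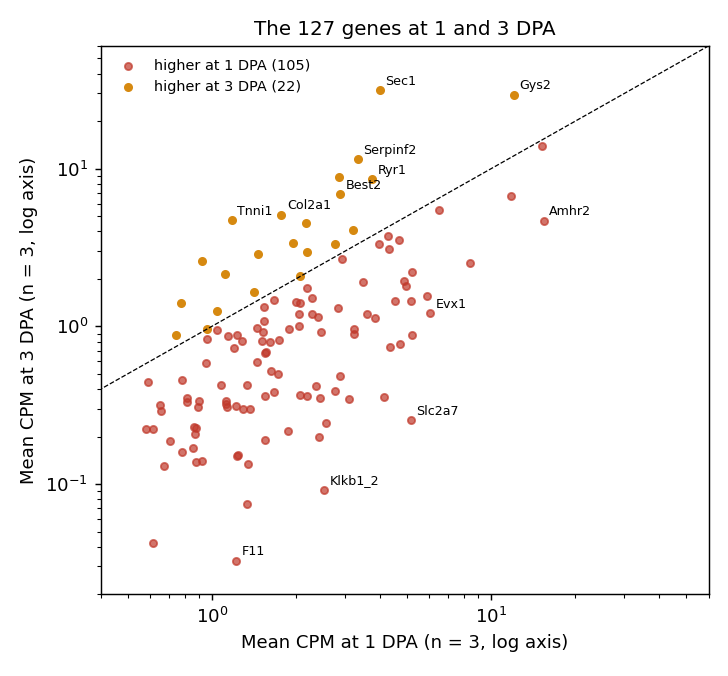
Mean CPM of the 127 genes at 1 DPA (x axis) and 3 DPA (y axis), n = 3 libraries each, on log axes; each point is a gene and the dashed line marks equal means. Sec1, Gys2, Serpinf2 and Ryr1 lie above the line among 22 genes higher at 3 DPA, and F11 and Klkb1_2 far below it.

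The step from 3 to 5 DPA used neither group of the rule and was tested with edgeR over all 12 libraries. Of the 127 genes, 16 (12.6%) fell from 3 to 5 DPA at a Benjamini-Hochberg adjusted p under 0.05, against 2.46% of all tested genes, and 0 rose (0.705% of all, and 3.16% of all in either direction). DESeq2 called 40 lower (4.4% of all genes). At an unadjusted p under 0.05, 64 were lower and 1 was higher, but the share of all genes at that threshold is not given, so these counts have no background. The log2 difference was negative for 115 of the 127 (90.6%, against 52.5% of all genes) with a median of −1.15, against −0.01 over all genes. Every 5 DPA library was below every 3 DPA library for 73 genes (12.1% of all tested) and above for 1. The other silent genes, summed, also stood lower at 5 DPA (303, 263 and 279 CPM) than at 3 DPA (536, 406 and 361 CPM), so a summed fall is not particular to the 127. All 127 genes passed the filter on low counts over the 12 libraries, to which the 1 DPA libraries contributed, and 107 passed it over the 3 and 5 DPA libraries alone. With the replicate number as a block, 6 of the genes were called lower (4.72%, against 1.39% of all genes), and without 3 DPA replicate 1, or without any one 5 DPA replicate, none was, while 7 were without 3 DPA replicate 2 and 5 without 3 DPA replicate 3.

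The lowest p belonged to Rsph6a, whose level fell by 2.27 on the log2 scale (SE 0.40, edgeR adjusted p = 0.0193, 0.0317 with the replicate block), from 3.33 CPM ± 1.05 to 0.713 CPM ± 0.172 (SD, n = 3 each). Asgr1 fell by 1.78 (SE 0.34, edgeR adjusted p = 0.0228, 0.0497 with the block) and Tnni1 by 2.14 (SE 0.44, edgeR adjusted p = 0.0295, 0.0208 with the block). Nhlh1 fell by 1.70 (SE 0.37, edgeR adjusted p = 0.0334), Hormad2 by 1.67 (SE 0.35, edgeR adjusted p = 0.0351) and Best2 by 1.62 (SE 0.38, edgeR adjusted p = 0.0413), and with the block their adjusted p was 0.0684, 0.06 and 0.0702. Gys2 fell by 2.27 (SE 0.50, edgeR adjusted p = 0.0413, 0.0473 with the block) and Serpinf2 by 2.31 (SE 0.54, edgeR adjusted p = 0.0476, 0.105 with the block). For all 8 of these genes every 5 DPA library lay below every 3 DPA library. Sec1, from 31.5 CPM ± 13.5 to 7.73 CPM ± 1.12, did not pass (edgeR adjusted p = 0.126).

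By gene type, 106 of the 127 (83.5%) were protein-coding, against 19% of the other silent genes and 44.9% of all annotated genes. The others were 9 lincRNA genes, 8 antisense genes, 2 processed transcripts and 2 transcribed pseudogenes. The protein-coding ones had a median of 7 separate exons and 2530 bases of exon, against 4 exons and 1847 bases in the other silent coding genes, and 6.604% against 14.42% had a single exon. CPM is not scaled by length, so a minimum in CPM is reached at fewer molecules by a longer transcript. Exons of 13 of the genes overlapped those of a gene expressed in the controls on the opposite strand, and since the use of strand in the counting is not given in the sources used here, their values are uncertain.

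Many of the genes lay just behind an active gene. An upstream neighbour was taken as the nearest gene on the same strand at 1 CPM or more in the controls that ended before the gene began, and counted when the gap was 10 kb or less. Such a neighbour stood before 55 of the 127 genes (43.3%), against 4.26% of the other silent genes and 9.17% of all genes. Among protein-coding genes the shares were 49.1% (52 of 106), 5.02% and 14.9%. Expressed neighbours in the other 3 positions were also more frequent than in silent genes, and nearer to the share of all coding genes: 21.7% against 4.75% downstream on the same strand (14.5% of all), 12.3% against 3.37% upstream on the opposite strand (12.2% of all) and 17% against 6.8% downstream on the opposite strand (17.3% of all). With overlapping same-strand genes that start upstream also counted, the share over all gene types was 48.8% of the 127, against 16.3% of the other silent genes. These shares are descriptions of annotated positions, with no test.

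**Figure D3:**
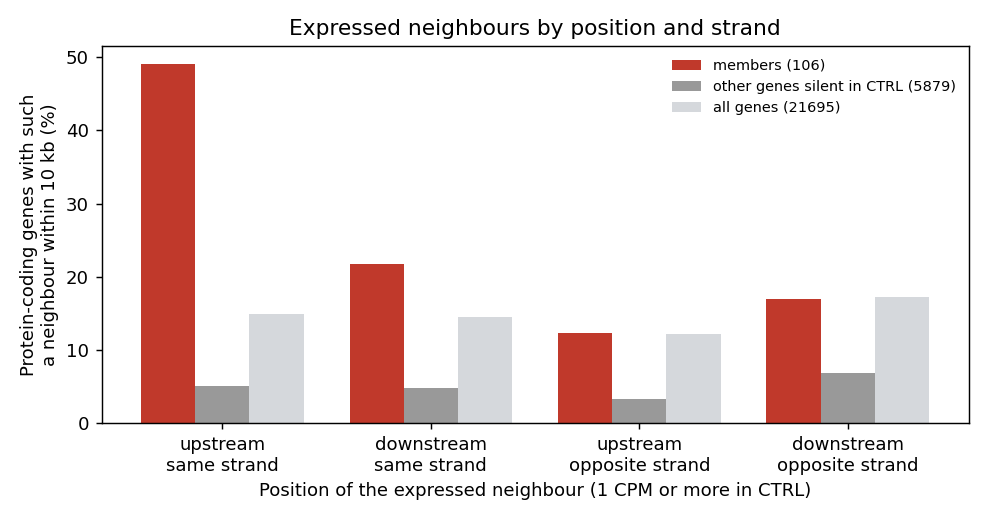
Share of protein-coding genes (y axis, %) with a gene of 1 CPM or more in the controls within 10 kb, in 4 positions (x axis), for the 106 coding genes described here (labelled members), the 5879 other coding genes silent in the controls and all 21695 coding genes. The upstream same-strand position stands out at 49.1%, against 5.02% and 14.9%.

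The share of silent coding genes that came on at 1 DPA was larger the closer the expressed upstream gene. It was 20% (6 of 30) for a gap up to 1 kb, 15.1% (24 of 159) for 1 to 5 kb, 13.9% (22 of 158) for 5 to 10 kb, 5.11% (36 of 705) for 10 to 50 kb and 0.389% (18 of 4629) beyond. The 3 bins within 10 kb lie close together and the first holds few genes. Within 10 kb the share also went with the neighbour's control level: 4.48% (3 of 67) at 1 to 5 CPM, 8.82% (9 of 102) at 5 to 20 CPM, 20.9% (28 of 134) at 20 to 100 CPM and 27.3% (12 of 44) at 100 CPM or more.

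**Figure D4:**
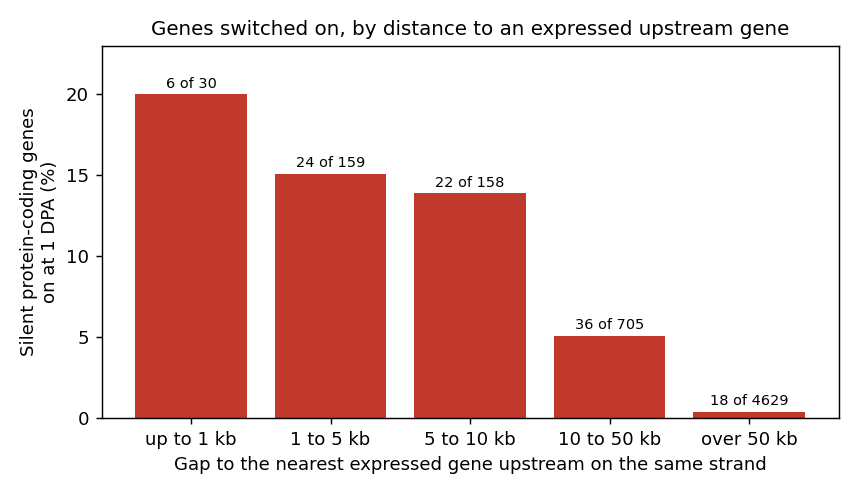
Share of protein-coding genes silent in the controls that were on at 1 DPA (y axis, %) by the gap to the nearest expressed gene upstream on the same strand (x axis), with the counts above each bar. The bars go from 20% within 1 kb to 0.389% beyond 50 kb.

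The pairs themselves show how unequal the partners were. Rsph6a begins 71 bp after Sympk, a scaffold of the RNA 3′ end cleavage complex, on the plus strand of chromosome 7 (Rsph6a at 19054690 to 19074447, mm10). Sympk had 154, 156 and 173 CPM in the controls and 212, 221 and 258 CPM at 1 DPA, and Rsph6a in TPM, the deposited level scaled by transcript length and library, stood at 7.38% of Sympk at 1 DPA, 8.14% at 3 DPA and 1.89% at 5 DPA. Mc1r begins 3271 bp after Tcf25, which had 390, 352 and 483 CPM in the controls and 431, 490 and 452 CPM at 1 DPA with overlapping ranges, and Mc1r was at 1.70% of its TPM at 1 DPA. Cfap53 begins 357 bp after Mbd1, a reader of methylated DNA (30.2 CPM ± 1.97 in the controls, 52.0 CPM ± 5.82 at 1 DPA, SD, n = 3 each), and was at 8.71% of its TPM at 1 DPA and 12.1% at 3 DPA. Serpinf2 begins 1352 bp after Wdr81, which had 48.4 CPM ± 1.30 in the controls, 86.2 CPM ± 24.3 at 1 DPA and 99.1 CPM ± 25.4 at 3 DPA (SD, n = 3 each), and its TPM went from 11.91% to 35.02% of Wdr81 between 1 and 3 DPA.

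In other pairs the neighbour did not move with the gene. Amhr2 begins 8962 bp after Sp1, a general transcription factor, at 74.7 CPM ± 3.12 in the controls and 78.42 CPM ± 11.98 at 1 DPA (SD, n = 3 each), and Amhr2 reached 82.8% of its TPM. Lhx3, 347 bp after Qsox2, and Lrrc66, 222 bp after Sgcb, had neighbours whose 1 DPA means were 0.760 and 0.710 of the control means. Ucn2, 1134 bp after Col7a1, differed from these, with Col7a1 at 7.79 CPM ± 1.81 in the controls and 33.6 CPM ± 6.68 at 1 DPA (SD, n = 3 each). Over the 55 pairs the neighbour's 1 DPA mean was a median of 1.21 times its control mean (range 0.0896 to 5.49), against 0.952 for neighbours of the other silent genes, and 9 of 55 (16.4%) were at 2 times or more, against 8.52%. The lowest ratio, that of Chil1, rests on control replicate 1 alone. Chil1 had 9.23, 0.492 and 0.241 CPM in the controls and 0.437, 0.289 and 0.167 CPM at 1 DPA.

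Per length, the genes stood at a median of 7.17% of their neighbour's TPM at 1 DPA (quartiles 3.42% and 15.2%), 3.92% at 3 DPA and 1.89% at 5 DPA. Under 5% of the neighbour were 21 of the 55 at 1 DPA, 33 at 3 DPA and 42 at 5 DPA, and 1, 2 and 0 were above it. Of the 55 genes with such a neighbour and the 72 without, 30 and 38 were on at 3 DPA, 18 and 21 at 5 DPA, and 9 and 13 had their highest mean at 3 DPA. Of the 72 genes without one, 7 overlapped an expressed gene on the same strand. Some of the strongest genes were among the 72: Sec1 begins 15064 bp after Sphk2, a sphingosine kinase gene at 65.0 CPM ± 4.66 in the controls and 335.2 CPM ± 237 at 1 DPA (SD, n = 3 each), Gys2 begins 17139 bp after Ldhb and exceeded it per length at 1 DPA (103%), and the nearest expressed gene before Evx1 was 722818 bp away. By replicate, Sphk2 had 181, 216 and 608 CPM at 1 DPA and 566, 300 and 333 CPM at 3 DPA, when Sec1 was highest. A link between them was not tested.

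**Figure D5:**
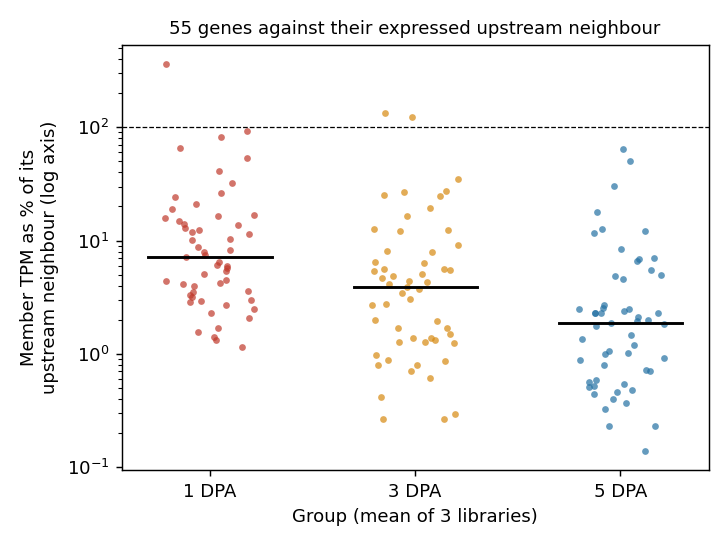
TPM of the 55 genes as a percentage of the TPM of their expressed upstream neighbour (log y axis) at 1, 3 and 5 DPA (means of 3 libraries); each point is a gene, bars are medians and the dashed line marks 100%. The medians are 7.17%, 3.92% and 1.89%.

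Lists of genes that act on RNA ends and on silent chromatin were read at 1 DPA against the controls, in genes outside the 127 (29.2% of all tested genes rose and 22.4% fell, edgeR adjusted p under 0.05). Of 28 genes of 3′ end cleavage and transcription termination, 22 rose and 0 fell, with a median log2 difference of 0.55 against −0.05 over all genes. Pcf11, a termination factor, went from 63.3 CPM ± 5.90 to 238 CPM ± 43.9 (SD, n = 3 each; log2 difference 1.87, SE 0.11, edgeR adjusted p = 1.93e-07), and Cstf3, Wdr33 and Cstf2t rose by 1.26, 1.09 and 0.91 on the log2 scale. Of 19 genes of the nuclear exosome, which degrades unstable nuclear RNA, 13 rose and 1 fell (median 0.51), among them Exosc10 (1.24), Exosc2 (1.08), Rbm7 (0.69) and Zcchc8 (0.57). Of 22 repressors of germline and tissue-restricted genes, 12 rose and 4 fell (median 0.27). Among those that rose were Trim28 (0.85), Eed (0.76), Morc2a (0.64) and Kdm5c (0.46). The 4 that fell were Rest (−0.96), Dnmt3b (−0.8), Ezh2 (−0.38) and E2f6 (−0.25). With libraries scaled to their total without the 50 most abundant genes, the median over all genes was −0.18, with 4223 genes called higher and 5523 lower in place of 5045 and 3871. Under that scaling 18 termination genes rose and 2 fell, 12 exosome genes rose and 1 fell, and the repressors were split 7 higher to 8 lower, so no direction is given for the repressors as a list.

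Of 16 tested meiosis genes, 2 rose (12.5%, against 29.2% of all genes) and none fell by the same edgeR test, or 2 and 1 under the other scaling. The 2 were Dmc1, at 0.413 CPM ± 0.161 at 1 DPA, and Msh4, at 0.213 CPM ± 0.281 (SD, n = 3 each). The Dmc1 call was lost with DESeq2 (adjusted p = 0.0517), with no filter (edgeR adjusted p = 0.0513) and on leaving out control replicate 1 or 3 (edgeR adjusted p = 0.0509 and 0.0789) or 1 DPA replicate 2 or 3 (0.0763 and 0.0895). Of 29 genes of motile cilia, 9 rose (31%, near the 29.2% of all genes) and 1 fell (median 0.40), or 6 (20.7%, against 24.4% of all genes) and 2 under the other scaling, so the list as a whole did not stand above all genes in its share of calls. Among its single genes, Rsph4a, a radial spoke gene, went from 1.6 CPM ± 0.433 to 21.3 CPM ± 1.68 (SD, n = 3 each; log2 difference 3.70, SE 0.20, edgeR adjusted p = 1.47e-07), and the dynein genes Dnaic2 and Dnaic1 and the assembly gene Ccdc40 rose by 2.92, 1.95 and 0.86. Of 11 tested receptors, Mc5r, a melanocortin receptor, rose from 0.00731 CPM ± 0.0127 to 0.278 CPM ± 0.0778 (SD, n = 3 each) and Sstr3 by 0.54 on the log2 scale, while Crhr1 and Avpr1a fell by 1.43 and 0.74.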

How the data were processed

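RNA of 12 islet libraries was measured. A stranded mRNA kit followed column extraction of RNA, per the labels' protocols. Per the file headers, the authors deposited whole-number read counts and TPM values for each gene in each library. The submitters' processing notes name the build mm10. The aligner, the annotation and the use of strand in counting were not given in the sources used here. As a check, of 35 antisense genes inside exons of a gene at 100 CPM or more, 29 were listed at under 1% of its TPM (median 0). The table's 24 other per-sample columns were not used.

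CPM was computed as the count over the column sum. The 127 genes and all lists were chosen with earlier results of these data known. Positions and types came from GENCODE M21 on the same build (48349 of 48709 genes matched). Differences were tested with edgeR 4.0.16 in R 4.3.3 (quasi-likelihood, robust, TMM, filterByExpr with a minimum count of 10, 17294 genes, all 4 groups in one fit), with Benjamini-Hochberg adjustment over all genes tested and a threshold of 0.05. The script was tested on simulated data. Alternatives were DESeq2 1.42.0, limma 3.58.1 (voom), other scalings, filters and thresholds, a replicate block and each replicate left out. Deviations of same-numbered libraries at 3 and 5 DPA had weak positive correlations (0.156, 0.187 and 0.326), and the block is given beside that test. Between controls and 5 DPA they were −0.109, −0.108 and −0.465, and libraries of different numbers were not compared. These values therefore do not establish a pairing, and no label says what a number marks.

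Named genes were the 20 with the highest mean at 1 DPA and the 5 highest at 3 and at 5 DPA with a descriptive symbol, the 5 highest of any name, up to 6 called between 5 and 3 DPA, all on a list, and their neighbours. Others named in or beside the groups by role (Oxt, Sox21, F11, Klkb1_2, Lhx3, Lrrc66, Vmn2r1, Wnt10b, the other transcription factors and the other muscle genes) were chosen after their values were seen, as were the role groups. Counting intervals are exact 95% intervals and, like the floor of 3 counts, cover counting error only, since no molecular identifiers are stated.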

Additional observations from a re-analysis of the deposited data

Results flagged for a closer look

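The 16 genes that fell between 3 and 5 DPA by the edgeR test are given for a closer look, because for them the difference from the controls differed between the 2 times in a test of that difference itself. They were Rsph6a, Gm11525, Asgr1, 4933405L10Rik, Gm4275, Tnni1, Gm15597, Nhlh1, 1700016P03Rik, Gm13373, Hormad2, Best2, Gys2, Myh3, B930025P03Rik and Serpinf2. With 3 libraries in a group, no library was tested for standing apart from its group.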

How the results depend on the processing

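The rule chose 83 genes with a control mean under 0.05 CPM, 210 with a 1 DPA minimum of 0.3 CPM and 67 with a minimum of 1 CPM, and 123 to 186 with 1 replicate left out, the highest without 1 DPA replicate 1. At a minimum of 1 CPM, 38 of the 127 were on at 3 DPA and 14 at 5 DPA. With 1 replicate left out these counts were 69 to 72 and 41 to 44. For genes chosen without 1 DPA replicate 3, an alternative added after seeing the data, 40 were on at 5 DPA. An upstream neighbour within 5 kb stood before 30 (23.6%, against 2.2% of the other silent genes), and within 20 kb before 82 (64.6% against 7.68%). With overlapping same-strand genes that start upstream also counted, 62 had one (48.8% against 16.3%). With 1 replicate left out of the choice, also added afterwards, 54 (of 128 genes chosen) to 72 (of 186) had one within 10 kb. Those shares were 38.7% to 44.7%, against 4.26% of the other silent genes. The count of genes lower at 5 than at 3 DPA was 40 with DESeq2, 30 with only the 2 groups compared and 6 with the replicate block, and 0 to 7 with 1 replicate left out. It was 23 with voom, and 12 with RLE scaling, without the 50 most abundant genes and with no filter. The cause of these differences was not tested. The total of list genes called at 1 DPA was 68, and 55 to 71 under the alternatives run. Within it, the repressors went from 12 higher and 4 lower to 7 and 8 without the 50 most abundant genes. For 38 called genes, followed one by one under these alternatives, no difference turned direction. Of these 38 calls, 10 were lost with the block, 5 with no filter, 4 with RLE scaling, 4 without the 50 most abundant genes, 3 with voom and 1 with DESeq2. The 4 repressors that fell were not followed one by one. Low counts limit the control levels, where 3 counts over the 3 libraries equal 0.0232 CPM.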
